A study of Homo sapiens with 5 samples.

Results

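The genes described here are the protein-coding genes of the short arm of human chromosome 7 without EGFR, its amplified neighbours and several housekeeping families. They were taken from GENCODE v44 (GRCh38) as genes that start before position 60000000 of chromosome 7 and have at least 10 reads in at least 2 of 5 libraries. EGFR, SEC61G, LANCL2, VOPP1, RAC1, PSPH, AHR, IL6, INHBA, TRA2A, HNRNPA2B1, GARS1, H2AZ2 and genes of ribosomal, respiratory chain, translation initiation, proteasome and chaperone families were left out by name. So the members were chosen by position, name and read number, with earlier results of these data known, and a gene read in only 1 line could meet the read rule only through that line. The rule left 176 genes of the 13492 genes with that many reads in the series. Of 297 annotated genes, 23 were left out by name and 98 had too few reads, among them 41 with no read in any library. The lowest members, 10 reads in exactly 2 libraries, numbered 7, and 148 had 10 reads in all 5. Just inside the read rule, MINDY4 had 10, 11, 9, 4 and 4 reads in the 5 libraries, and just outside it FAM221A had 12, 8, 8, 5 and 5.

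The libraries are nanopore cDNA libraries of poly(A) RNA from NCI-H1975 and HCC827, established lung adenocarcinoma cell lines, mixed by mass. A library is called by the NCI-H1975 share and then the HCC827 share of its RNA. The pure NCI-H1975 library is 100:0, the mixed libraries 75:25, 50:50 and 25:75 hold more HCC827 RNA in turn, the pure HCC827 library is 0:100, and values below follow this order. The untreated lines were grown separately, and each ratio had 1 library. By the sample titles, the NCI-H1975 RNA held sequins mixA and the HCC827 RNA sequins mixB (synthetic RNAs). The deposited counts held 5475, 4678, 2830, 1269 and 0 reads on sequins, so none in the 0:100 library. The reason was not tested. All 5 libraries came from 1 RNA preparation per line, so every p-value measures only the scatter of these libraries about a trend, and in RNA from many cells fewer expressing cells cannot be told apart from less RNA per cell.

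The short arm of chromosome 7 carries genes of many unrelated functions, among them the HOXA cluster of developmental transcription factors, the growth factor gene PDGFA and the cytoskeletal actin gene ACTB. Toward the centromere it holds EGFR, the receptor tyrosine kinase whose mutation or amplification drives many lung adenocarcinomas, and HCC827 is known for an amplified EGFR locus. When a chromosome segment is gained or lost in a tumour, the RNA of its genes often shifts together, but genes under strong regulation of their own can move apart from their neighbours.

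Upstream sequence is shown for 6 members that the results below turn on: CHCHD2 beside EGFR and HOXA3 in the HOXA cluster, which both rose with HCC827, and FAM20C, EPDR1, THSD7A and SNX10, which fell to between 0 and 6 reads in the 0:100 library. Each run is the 250 bases before the RefSeq transcript start (GRCh38.p14), 5′ to 3′ on the strand of the gene, with CG dinucleotides in capitals. They lie at chr7:56106477-56106726 (minus strand), chr7:27152584-27152833 (minus strand), chr7:192321-192570 (plus strand), chr7:37920390-37920639 (plus strand), chr7:11832199-11832448 (minus strand) and chr7:26291612-26291861 (plus strand), in the order printed.
CHCHD2: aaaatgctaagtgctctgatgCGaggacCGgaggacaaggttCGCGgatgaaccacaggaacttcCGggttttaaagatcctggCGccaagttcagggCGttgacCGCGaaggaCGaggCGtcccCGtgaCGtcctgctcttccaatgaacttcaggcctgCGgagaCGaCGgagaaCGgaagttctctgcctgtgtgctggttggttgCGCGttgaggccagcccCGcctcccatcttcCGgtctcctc
HOXA3: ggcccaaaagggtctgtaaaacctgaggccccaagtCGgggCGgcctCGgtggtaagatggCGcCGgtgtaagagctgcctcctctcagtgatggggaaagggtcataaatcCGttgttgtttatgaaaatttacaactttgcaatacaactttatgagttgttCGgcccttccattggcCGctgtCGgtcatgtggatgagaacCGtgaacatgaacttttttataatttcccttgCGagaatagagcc
FAM20C: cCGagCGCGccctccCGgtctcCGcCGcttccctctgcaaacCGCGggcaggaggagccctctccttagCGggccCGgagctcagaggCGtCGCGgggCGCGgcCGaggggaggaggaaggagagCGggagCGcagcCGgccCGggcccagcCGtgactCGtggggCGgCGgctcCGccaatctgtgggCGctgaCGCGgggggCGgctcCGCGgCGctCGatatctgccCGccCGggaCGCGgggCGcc
EPDR1: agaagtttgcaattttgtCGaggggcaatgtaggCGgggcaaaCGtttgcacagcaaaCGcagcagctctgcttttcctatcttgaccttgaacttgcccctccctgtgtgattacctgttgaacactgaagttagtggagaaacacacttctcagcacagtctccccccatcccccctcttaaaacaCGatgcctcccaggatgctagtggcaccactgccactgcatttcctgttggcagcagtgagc
THSD7A: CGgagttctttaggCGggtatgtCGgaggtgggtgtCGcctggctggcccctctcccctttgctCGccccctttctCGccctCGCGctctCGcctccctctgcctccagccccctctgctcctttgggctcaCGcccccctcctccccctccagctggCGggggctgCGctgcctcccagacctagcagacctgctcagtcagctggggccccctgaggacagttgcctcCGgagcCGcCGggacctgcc
SNX10: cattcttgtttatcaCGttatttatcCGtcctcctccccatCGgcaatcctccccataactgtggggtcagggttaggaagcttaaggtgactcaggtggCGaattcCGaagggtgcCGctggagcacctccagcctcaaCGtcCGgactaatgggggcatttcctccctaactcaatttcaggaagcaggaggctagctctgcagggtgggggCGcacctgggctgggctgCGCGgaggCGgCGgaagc

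The CG capitals show how unlike these windows are. The FAM20C window held 38 CG dinucleotides and the EPDR1 window 5, although both genes fell from NCI-H1975 to HCC827. The rising genes CHCHD2 and HOXA3 had 21 and 11. A RefSeq promoter was found for 138 of the 176 members, and their median was 22 CG dinucleotides, against 11 over all 35116 promoters of the table. At least 10 were present in 87.0% of the members' windows and in 52.2% of all windows. The members are protein-coding genes read in these lines, while the promoters of the table were not limited by reads or gene type. A set limited as the members are was not compared, here or for the motifs below. The median was 20.0 for members that rose, 21.0 for those that fell and 26.5 for the others, so the groups lay close together. Short motifs were searched on both strands. The core of the TATA box, TATAAA, was in 6.52% of members' windows and 10.7% of all windows. The CCAAT box had shares of 31.9% and 32.0%. The GC box GGGCGG, which contains a CG itself, had shares of 64.5% and 42.6%. Among the printed windows only that of HOXA3 held the TATA core.

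Library totals ran from 2932250 to 4058751 reads and did not follow the mixing ratio, whereas the share of reads on the 176 genes did. It was 2.23, 1.98, 1.82, 1.75 and 1.52% of all reads, falling at every step toward HCC827. Such a share is unscaled, and without scaling the median of all genes also ran down (log2 change -0.45 from 0 to 100% HCC827). The epithelial markers EPCAM, CDH1, KRT7, KRT8, KRT18, KRT19, NKX2-1 and NAPSA were detected in all 5 libraries. Several of them also ran with the series: NAPSA had 7, 278, 441, 455 and 690 reads, and KRT18 had 3121, 7285, 8889, 9792 and 11416. The markers of blood cells, erythrocytes and hepatocytes PTPRC, CD3E, HBB and ALB had 0 reads in each, while PECAM1 and VWF had at most 3. CD68, a lysosomal protein rich in macrophages, had between 192 and 302. The fibroblast collagens ran the other way: COL1A1 had 532, 508, 351, 163 and 19 reads and COL1A2 had 96, 91, 56, 13 and 0. Their part in the results was not tested. The mean annotated transcript length behind a read also fell, from 2572 bases in the 100:0 library to 2169 in the 0:100 library over all reads, and from 2423 to 2224 over reads on the 176 genes.

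Most of these genes, 123 of 176 (69.9%), had lower fitted levels in HCC827 than in NCI-H1975. Expression was tested with a slope, the fitted log2 change from 0 to 100% HCC827 (edgeR quasi-likelihood test, with p adjusted by the Benjamini-Hochberg method over 13492 genes), and a gene is said to rise or fall where the adjusted p was under 0.05. Of the 176 genes, 107 (60.8%) passed, against 45.7% of all genes tested. Falling genes numbered 76 (43.2%, against 22.3% of all genes) and rising genes 31 (17.6%, against 23.5%). The median slope was -0.54, with a range from -4.54 to 3.52, where the median of all genes was -0.03. These counts describe the arm and were not tested as a set. Without the 0:100 library, 69 genes passed, of which 47 fell and 22 rose.

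A change of scaling shifts all slopes by about the same amount, so the distance of the arm from all genes could hardly change with it. The split between rising and falling genes could, and did. The members' median lay 0.50 below that of all genes with TMM scaling, with DESeq2 size factors and with library totals alike. Library totals moved the median of all genes to -0.45, a shift of over 0.1, and then 16 members rose and 114 fell. With TMM scaling, 29.0% of the calls on the arm were rises, and with library totals 12.3%. Over all genes the corresponding shares were 51.3% and 26.0%. Below the median of all genes lay 119 of the 176 members (67.6%) under each of the 3 scalings, which could hardly differ for the same reason. In the fits without 1 library, the members' median minus that of all genes ran from -0.52 to -0.42. In those fits 113 to 122 members lay below the median of all genes. Among members with 10 reads in every library, the counts were 26 rising and 70 falling of 148. No gene called with TMM scaling changed sign under any of 13 other settings.

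**Figure D1:**
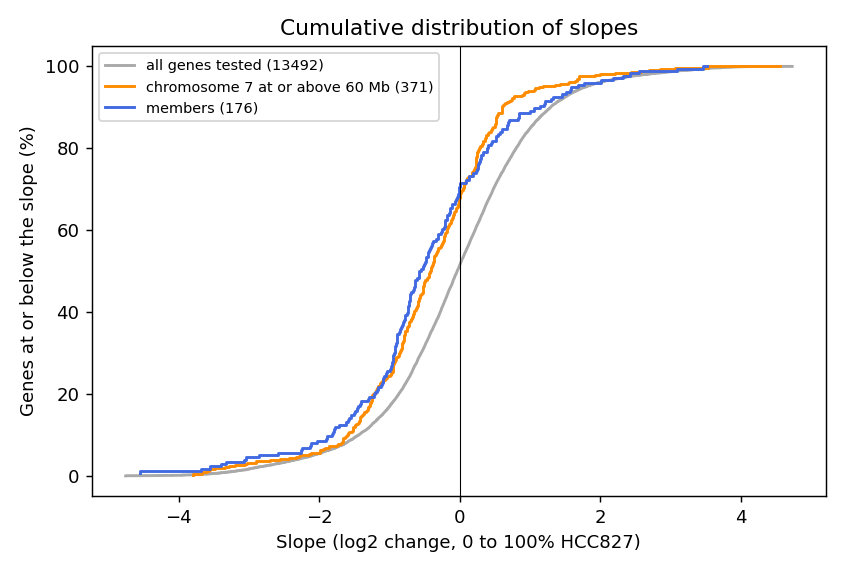
Cumulative share of genes (vertical axis, %) at or below each slope (horizontal axis, log2 change from 0 to 100% HCC827) for the 176 members, the 371 protein-coding genes of chromosome 7 that start at or above 60 Mb and all 13492 genes tested. The members' curve crosses 0 at 69.9% and that of all genes at 51.4%, and the curve of the rest of chromosome 7 runs close to that of the members.

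The plot of slope distributions sets the arm beside the rest of its chromosome. From 60 Mb on, chromosome 7 held 371 protein-coding genes with enough reads, of which 47 rose and 139 fell, with a median slope of -0.41. Lower genes were thus in the majority on both sides of that position, and the difference between them was not tested. Other chromosomes had medians from -0.59 (chromosome 10) to 0.37 (chromosome 17). By the annotated length of the transcripts behind their reads, members averaging under 1500 bases had a median slope of -0.66, where all genes of that length had 0.32. Those of 2500 bases or more had -0.59, against -0.19.

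Along the arm, the medians were below 0 in 5 of 6 windows of 10 Mb and above 0 in the window that holds EGFR. From the telomere, the 60 members of the first window had a median slope of -0.40, with 11 rising and 25 falling. The next windows had medians of -0.79 (15 members), -0.76 (35 members), -0.70 (27 members) and -0.27 (30 members). Between 30 and 40 Mb, 15 of 27 members fell and 1 rose, the gene AOAH, which encodes an enzyme that degrades bacterial lipopolysaccharide and did not pass without the 100:0 or the 0:100 library. The last window, 50 to 60 Mb, had a median of 1.22 over 9 members, of which 5 rose and 1 fell. Its share of all reads went from 0.118% in the 100:0 library to 0.261% in the 0:100 library, the reverse of the other 5 windows.

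**Figure D2:**
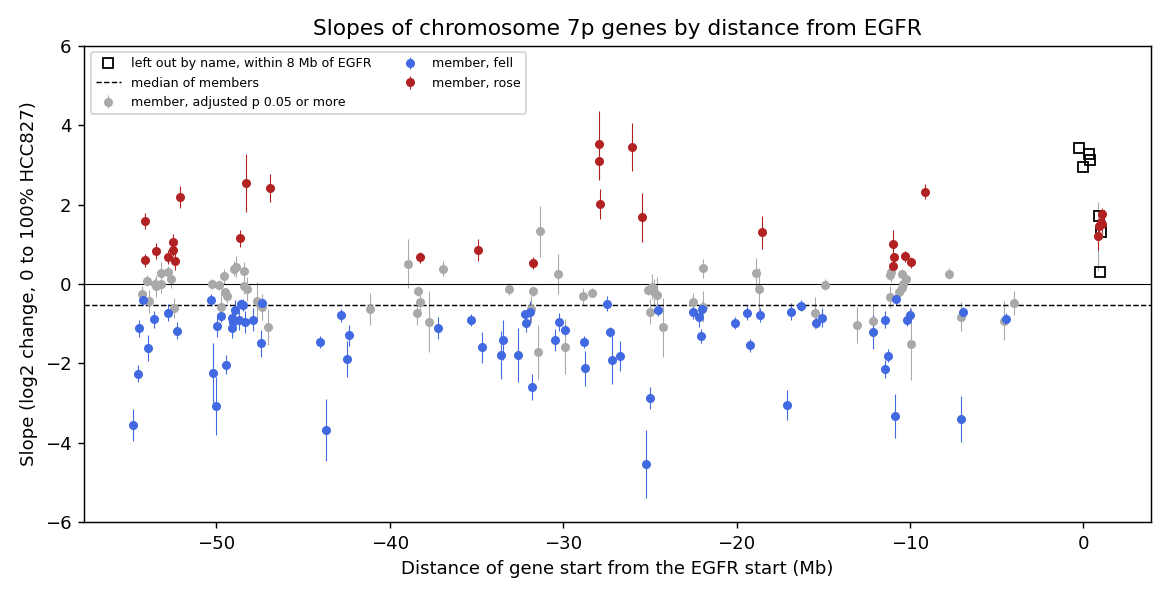
Slope of each member (vertical axis, log2 change from 0 to 100% HCC827, bars are 1 standard error) against the distance of its start from the start of EGFR (horizontal axis, Mb), coloured by call. Open squares are genes left out by name within 8 Mb of EGFR, and the 6 members within 2 Mb of EGFR stand between 1.20 and 1.77, above the dashed median of -0.54.

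The 6 members within 2 Mb of EGFR all had positive slopes, and 5 of them rose. They lie on the centromeric side, 0.676 to 0.890 Mb beyond the end of EGFR, and their median slope was 1.48. CHCHD2 (chr7:56101573-56106476, minus strand) encodes a small protein of mitochondria that also acts in transcription of respiratory genes, and its upstream sequence is printed above. It had 2230, 4819, 5787, 5795 and 6113 reads, or 667, 1133, 1507, 2055 and 2306 TMM-scaled CPM, read counts scaled to library size. It climbed at each step of the series. The slope was 1.77 ± 0.15 (SE; edgeR adjusted p = 4.7e-06) and the level in the 0:100 library was 3.46-fold that of the 100:0 library (95% interval 3.30 to 3.63, exact binomial, counting error only).

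SUMF2 (chr7:56064002-56080670, plus strand), a paralogue of the sulfatase-modifying enzyme, had 139, 222, 281, 352 and 438 CPM. NIPSNAP2, a mitochondrial matrix protein, had 43.9, 68.2, 85.2, 108 and 128 CPM. Both climbed in the order of the mixtures, with slopes of 1.57 ± 0.14 and 1.46 ± 0.15. NIPSNAP2 overlaps MRPS17 (3311 reads) on the same strand, so its reads may be shared. PHKG1, the muscle catalytic subunit of phosphorylase kinase, had 21.8, 34.6, 51.6, 51.1 and 70.2 CPM, with its middle libraries level, and a slope of 1.51 ± 0.22. It overlaps SUMF2 on the opposite strand, and reads of the pair could not be told apart where counting ignores strand, which is not stated. ZNF713, a zinc finger gene, rose less steeply, from 6.28 through 6.82, 8.59 and 12.4 to 13.2 CPM (slope 1.22 ± 0.36), and its edgeR adjusted p was 0.0715 without the 0:100 library and 0.0773 with library totals. The sixth, ENSG00000249773, is a readthrough model across ZNF713, NIPSNAP2 and MRPS17 with 3, 13, 5, 5 and 11 reads, and it did not pass.

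The slopes of this block were smaller than those of the genes at the receptor itself, which the rule leaves out. SEC61G, EGFR, LANCL2 and VOPP1 had slopes of 3.44, 2.96, 3.28 and 3.13, and their 0:100 levels were 15.2, 10.3, 18.6 and 11.3 times those of the 100:0 library. The 5 members that rose beyond them differed by 2.10 to 3.46 times. Genes left out of the same block differed too: MRPS17 (slope 1.70) and CCT6A (1.30) rose, while PSPH, which lies between NIPSNAP2 and CCT6A, had a slope of 0.29 ± 0.12 and did not pass (edgeR adjusted p = 0.0602). The step from the receptor's neighbours to this block was not tested.

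On the telomeric side no member lay within 3.70 Mb of the start of EGFR. The nearest, COBL, an actin nucleator, had 35.3, 25.6, 25.5, 16.3 and 29.1 CPM and did not pass. It was lowest in the 25:75 library, and without the 0:100 library its slope was -1.28 (edgeR adjusted p = 0.00998). GRB10, an adaptor that dampens insulin and growth factor receptor signalling, fell from 113 through 91.0, 74.7 and 77.0 to 57.0 CPM (slope -0.89 ± 0.15). FIGNL1, a gene of homologous recombination, had 9.57, 12.2, 4.95, 8.51 and 5.28 CPM with no steady order and did not pass. In windows of 5 Mb, the 3 members from 50 to 55 Mb had a median slope of -0.89 and the 6 from 55 to 60 Mb one of 1.48. The 170 members farther than 2 Mb from EGFR had 26 rising and 76 falling genes, with a median slope of -0.58.

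Large differences between the pure libraries were more often falls than rises, and several falling genes were nearly absent from HCC827. A level at least 4-fold lower in the 0:100 library, with counts under 3 set to 3 reads, was seen for 18 members, and one at least 4-fold higher for 10. Together that is 15.9% of members, against 11% of all genes (5.98% lower and 4.97% higher). With 1 library each, this is a description without a test. Levels ran strictly in the order of the mixing ratio in 71 members (40.3%, against 28.5% of all genes). Among genes at least 4-fold apart, 20 of 28 members were in order, as were 953 of 1477 genes in the whole series.

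Secreted and extracellular proteins lead the falling genes. FAM20C (chr7:192571-260772, plus strand) encodes the Golgi kinase that phosphorylates secreted proteins. Its 247, 183, 118, 44 and 4 reads, or 73.8, 43.0, 30.7, 15.6 and 1.51 CPM, dropped with each mixture, by 48.9 times between the pure libraries (95% interval 18.9 to 181). The slope was -3.56 ± 0.41 (edgeR adjusted p = 2.5e-05). EPDR1, an ependymin-related lysosomal and secreted protein, had 160, 126, 87, 37 and 6 reads and was 21.1-fold lower in the 0:100 library (slope -3.04 ± 0.38). The CG-rich FAM20C window and the CG-poor EPDR1 window printed above thus belong to genes with a similar course.

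PDGFA (chr7:497258-520296, minus strand) encodes a platelet-derived growth factor chain, a mitogen for mesenchymal cells. It fell from 132 through 117, 79.9 and 50.0 to 24.9 CPM, with a slope of -2.26 ± 0.22 (edgeR adjusted p = 8.71e-06). GPNMB, a transmembrane glycoprotein of melanosomes and lysosomes, had 128, 102, 80.5, 46.1 and 12.8 CPM (slope -2.59 ± 0.33). Both declined at every step, 5.32-fold and 9.97-fold. THSD7A, a thrombospondin-type membrane protein, had 32, 19, 17, 4 and 0 reads, so its level was at least 8.45-fold lower in the 0:100 library, taking 3 reads as the limit that a count of 0 allows. FKBP14, a collagen-folding peptidyl-prolyl isomerase of the endoplasmic reticulum, fell from 138 through 127, 69 and 27 to 14 reads (7.81-fold). The fall of FKBP14 and its relative FKBP9 (slope -1.30 ± 0.18) ran beside that of the collagen markers given above. Any gene higher in NCI-H1975 would do so in this series, and a link between them was not tested.

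Of 16 members on the list of cytoskeleton, adhesion and migration genes, 12 fell and none rose, where 22.3% of all genes fell and 23.5% rose. The edgeR test gave 0 rising genes also at an unadjusted p under 0.05, as did the DESeq2 Wald test and limma-voom. The median slope was -1.09, against -0.54 for the arm. FSCN1 (chr7:5592816-5606655, plus strand), which encodes the actin-bundling protein of filopodia, had 349, 249, 203, 164 and 66.0 CPM. The level stepped down with each mixture, 5.28-fold in all (slope -2.03 ± 0.23). WIPF3, a WASP-interacting protein, had 24, 24, 7, 2 and 0 reads and was at least 6.34-fold lower. The genes that also fell included SEPTIN7 (slope -1.54), ANLN (-0.78), ITGB8 (-1.59), SCIN (-1.89), RADIL (-2.24), MICALL2 (-0.89), CCM2 (-0.77), SUN1 (-0.40) and GPNMB. ITGB8, SCIN, RADIL, MICALL2 and SUN1 did not pass without the 0:100 library, COBL then passed, and 8 of the list fell. SCIN and RADIL were also lost without the 100:0 library, and RADIL and SUN1 without the 75:25 library.

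ACTB, the cytoplasmic beta-actin used as a reference gene in many assays, stood on the same list and did not pass. It had 17972, 21437, 17794, 14588 and 11759 reads, the most of any member, and its CPM was 1.21-fold lower in the 0:100 library. Its slope of -0.20 ± 0.10 had an edgeR adjusted p of 0.106, which became 0.0464 with only genes of 10 reads in all 5 libraries and 0.017 without the 25:75 library. With library totals its slope was -0.62 (edgeR adjusted p = 1.54e-04). TNS3 (slope 0.26), TSPAN13 and COBL were the other members of the list that did not pass. ACTB, PPIA, CBX3, CHCHD2 and TOMM7 have processed pseudogenes, among which reads could be divided.

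**Figure D3:**
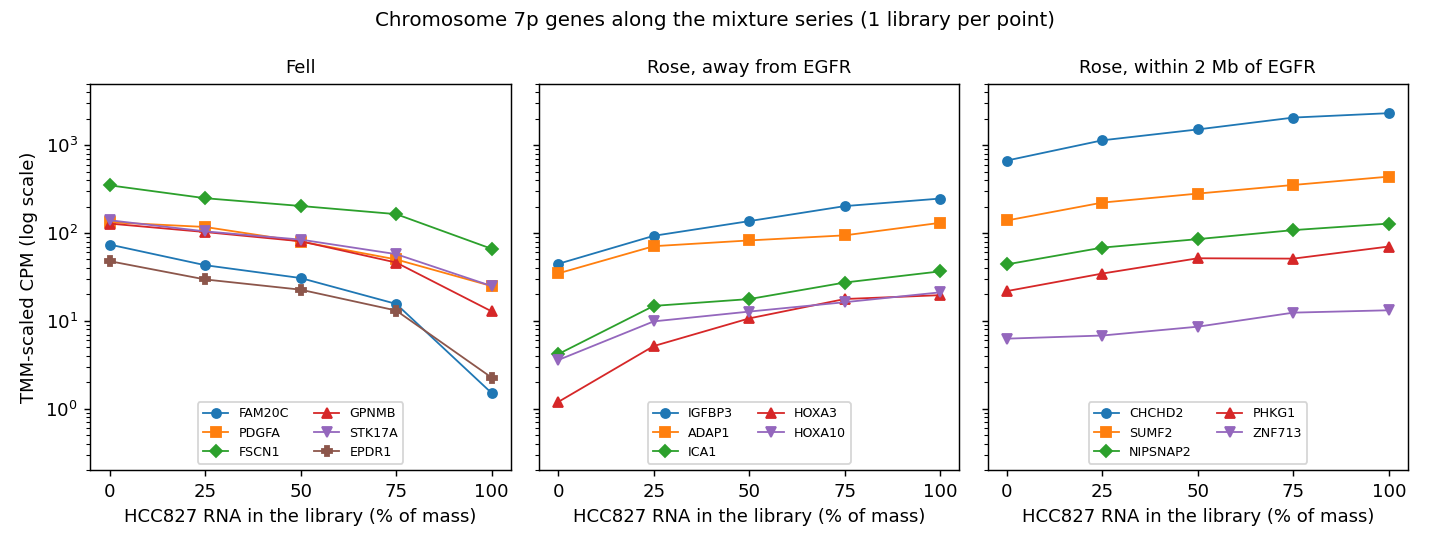
Level of 16 members (vertical axis, TMM-scaled CPM on a log scale) against the share of HCC827 RNA in each of the 5 libraries (horizontal axis, % of mass), 1 library per point. Left, 6 genes that fell, with FAM20C dropping to 1.51 CPM; middle, 5 that rose away from EGFR; right, the 5 that rose within 2 Mb of EGFR, with CHCHD2 reaching 2306 CPM.

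Of 20 members on the signalling list, 11 fell and 5 rose, with a median slope of -0.87. Falls made up 43.2% of the arm and 22.3% of all genes, and rises 17.6% and 23.5%. FAM20C and PDGFA were the steepest falls, followed by STK17A, a death-associated serine kinase, with 139.6, 104, 84.1, 57.5 and 24.9 CPM (slope -2.13 ± 0.22). The G protein-coupled oestrogen receptor gene GPER1 (-1.61), the G protein subunit GNA12 (-1.17), the protein kinase A regulatory subunit PRKAR1B (-1.11), the small GTPase RALA (-0.97), CDK13 (-0.85) and SNX13 (-1.10) also fell. GPER1 overlaps C7orf50 (3700 reads) on the opposite strand, and without strand their reads cannot be told apart. The list also holds PHF14, which encodes a PHD-finger protein of chromatin and fell by 1.47, and IGF2BP3, which encodes an RNA-binding protein and rose by 0.52. CDK13 and SNX13 did not pass without the 0:100 library, nor IGF2BP3 without the 100:0 library or with library totals, where its slope was 0.11 (edgeR adjusted p = 0.579). CYTH3, STK31, SCRN1 and NOD1 did not pass.

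IGFBP3 (chr7:45912245-45921874, minus strand) was the steepest rise among signalling genes. It encodes the main circulating carrier of insulin-like growth factors. Its 44.5, 92.9, 136, 202 and 246 CPM climbed at each step to 5.53-fold (95% interval 4.62 to 6.65), with a slope of 2.33 ± 0.19 (edgeR adjusted p = 4.05e-06). ADAP1, an Arf GTPase-activating protein, had 34.7, 70.8, 82.3, 94.0 and 131 CPM (slope 1.59 ± 0.21). It overlaps COX19 on the same strand, so its reads may be shared. LFNG, a glycosyltransferase that modifies Notch receptors, rose by 1.07.

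HOXA3 and HOXA10 had few reads in NCI-H1975 and rose. Most of the 12 genes listed for the HOXA cluster did not meet the read rule, so a HOXA gene seen in 1 line had to differ to be counted, and those under it had between 0 and 12 reads in any library. HOXA3 (chr7:27106184-27152583, minus strand) had 4, 22, 41, 50 and 52 reads, 16.4-fold higher in CPM in the 0:100 library (95% interval 6.04 to 62.5; slope 3.10 ± 0.48). HOXA10 had 12, 42, 49, 46 and 56 reads (5.89-fold, slope 2.01 ± 0.37). Both also passed without any 1 library. The antisense transcript HOXA-AS2 (112 reads) overlaps HOXA3, and without strand their reads cannot be told apart.

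Among other transcription factor and chromatin genes, 6 of 15 members fell and 2 rose (median slope -0.40), a share of falling genes near the 43.2% of the whole arm. CBX3, the heterochromatin protein HP1 gamma, fell from 573 through 513, 399.7 and 248 to 234 CPM, a course with its largest steps in the middle of the series (slope -1.45 ± 0.15). It shares a bidirectional locus with HNRNPA2B1. JAZF1, CREB5, SP4, PURB and FOXK1 also fell, by 1.91, 1.81, 1.78, 0.91 and 0.40. JAZF1 overlaps TAX1BP1 (4530 reads) on the opposite strand, and without strand their reads cannot be told apart. MACC1, a regulator of MET transcription linked to metastasis, had 12.9, 18.1, 18.8, 17.4 and 27.5 CPM (slope 0.85 ± 0.28), and ZMIZ2, a coactivator, rose by 0.70. Without the 0:100 library 3 fell and 1 rose, and JAZF1, SP4, FOXK1 and MACC1 were the calls lost. JAZF1 was also lost without the 75:25 or the 25:75 library, SP4 and MACC1 without the 100:0 library, and FOXK1 in all 5 fits without 1 library. With library totals neither MACC1 nor ZMIZ2 passed. INTS1, MAFK, ETV1, HDAC9, CDCA7L, NFE2L3 and GLI3 did not pass.

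Metabolic and mitochondrial genes split, with 7 rising and 9 falling of 18 (median slope -0.24). On the whole arm 17.6% rose and 43.2% fell, and of all genes 23.5% rose and 22.3% fell. CHCHD2, SUMF2, PHKG1 and NIPSNAP2 of the block beside EGFR made up 4 of the 7, and AOAH, DAGLB and TBRG4 were the others. BLVRA, which encodes biliverdin reductase of haem breakdown, fell from 98.4 through 67.5, 56.5 and 38.7 to 26.4 CPM (slope -1.81 ± 0.17). CYCS, which encodes cytochrome c, had 332, 273, 236, 204 and 138 CPM (slope -1.16 ± 0.13). Both declined in order, as did UPP1, a uridine phosphorylase (-0.69). OGDH and CHST12 did not pass. Without the 0:100 library 5 rose and 5 fell, and with library totals 5 rose and 10 fell.

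In the list of epithelial and secretory genes, 5 of 8 members fell and 2 rose (median slope -0.90). The arm had 43.2% falling and 17.6% rising genes, and all genes 22.3% and 23.5%. CPVL, a serine carboxypeptidase, had no read in the 100:0 library and 33, 62, 61 and 84 in the others, at least 35.3-fold above the limit for the 100:0 library in the 0:100 library (slope 3.46 ± 0.61). AGR2, a disulfide isomerase of mucin-producing epithelia, rose in order from 74.4 through 95.9, 102 and 114 to 125 CPM (slope 0.68 ± 0.14), but not with library totals (edgeR adjusted p = 0.110). FKBP14, FKBP9, KDELR2, DNAH11 and STEAP1B fell. STEAP1B was at the edge, with 14, 20, 13, 5 and 3 reads and an edgeR adjusted p of 0.0485, and it did not pass in any fit without 1 library. DNAH11 did not pass without the 100:0, the 50:50 or the 25:75 library, each of which left 3 falling. It overlaps CDCA7L (1128 reads) on the opposite strand, and without strand their reads cannot be told apart. The same holds for STEAP1B and IL6 (72 reads). STEAP1B also overlaps EEF1A1P6 (95 reads) on the same strand, so its reads may be shared.

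Of 11 DNA replication, repair and mitosis genes, 3 rose and 3 fell, where 23.5% of all genes rose and 22.3% fell. The median slope was -0.11. The even split held with TMM scaling, but with library totals 1 rose and 6 fell. The mismatch repair gene PMS2 fell from 47.8 through 41.1, 32.3 and 31.6 to 23.8 CPM (slope -0.96 ± 0.19). PMS2 has pseudogene copies on the same chromosome, so reads may be shared. The contractile ring gene ANLN and RPA3, a subunit of the single-strand DNA binding protein, fell by 0.78 and 0.47, RPA3 not without the 100:0 or the 0:100 library. POLD2, a subunit of DNA polymerase delta, rose by 0.67, and BRAT1, a regulator of the DNA damage response, by 0.85. With library totals POLD2 did not pass (edgeR adjusted p = 0.0889). POLM rose by 1.00, from 22 reads in the 100:0 library to 35 in the 0:100 library. Its call was lost in every fit without 1 library and with library totals. MAD1L1, NUDT1, CDCA7L, HUS1 and FIGNL1 did not pass.

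Of 25 members on the list of RNA and protein handling genes, 10 fell, 2 rose and 13 did not pass (median slope -0.38), so the share that fell was also near that of the arm, and the share that passed was near the 45.7% of all genes. SNX10, an endosomal sorting nexin, had 71, 79, 52, 31 and 6 reads and was 9.38-fold lower in the 0:100 library (slope -2.12 ± 0.44). TAX1BP1, an autophagy receptor, fell from 376 through 296, 260.2 and 213 to 155 CPM (slope -1.20 ± 0.12). PPIA, the cyclophilin that is another common reference gene, had 7433, 9285, 8676, 7006 and 6212 reads and did not pass (slope 0.14 ± 0.10; edgeR adjusted p = 0.264). Its sign depended on the scaling: with library totals the slope was -0.28 (edgeR adjusted p = 0.0242). SNX8 and GET4 rose by 0.68 and 0.60, but neither passed with library totals or without the 0:100 library. Without that library 5 of the list fell. SNX8 overlaps EIF3B (4909 reads) on the opposite strand, and without strand their reads cannot be told apart.

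Of the 3 zinc finger genes by name, ZNF713 rose, ZNF12 fell (slope -0.96) and ZNF316 did not pass. ZNF12, with 21.2, 18.1, 17.2, 14.2 and 9.81 CPM, did not pass without the 100:0 or without the 0:100 library. Outside all lists stood 61 members. ICA1, an islet autoantigen of secretory vesicles, had 14, 63, 68, 77 and 97 reads, 8.74-fold higher in CPM in the 0:100 library (slope 2.42 ± 0.35). SUN3, a nuclear envelope protein known from testis, had 77, 55, 36, 17 and 0 reads, at least 20.3-fold lower. TOMM7, a small subunit of the mitochondrial import pore, had 746, 665, 590.4, 541 and 428 CPM (slope -0.76 ± 0.12). Each of these ran in the order of the mixtures.

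The flattest courses belonged to INTS1, OGDH, AP5Z1 and WIPI2, which did not pass. INTS1, a subunit of the Integrator complex, had 99.2, 94.0, 91.9, 87.3 and 103 CPM, and OGDH, a subunit of the oxoglutarate dehydrogenase complex, had 96.9, 101, 100.0, 96.1 and 100.0. Their slopes were 0.00 ± 0.14 and 0.01 ± 0.13. AP5Z1, a subunit of an adaptor complex of endosomes, and WIPI2, a phosphoinositide-binding autophagy protein, had slopes of -0.01 ± 0.12 and -0.02 ± 0.13. They had the smallest slopes among members with at least 500 reads. The sign of each turned under other settings, and with library totals all 4 fell by 0.41 to 0.43 along with the median of all genes.

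Isoform usage, the share of each transcript within its gene, changed in 1 of the 115 members that could be tested (edgeR diffSpliceDGE, Simes p adjusted over 7455 genes), and 0.402% of all genes tested passed. That gene was SUN1 (chr7:816615-896435, plus strand), which encodes a nuclear envelope protein that couples the nucleus to the cytoskeleton. The transcript SUN1-222 had 62, 91, 91, 84 and 88 of 311, 392, 335, 225 and 189 reads on tested SUN1 transcripts, or 19.9, 23.2, 27.2, 37.3 and 46.6%. The share rose at each step, and the 95% Wilson intervals of the pure libraries, 15.9 to 24.7% and 39.6 to 53.7%, did not overlap. The Simes adjusted p was 0.00837.

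**Figure D4:**
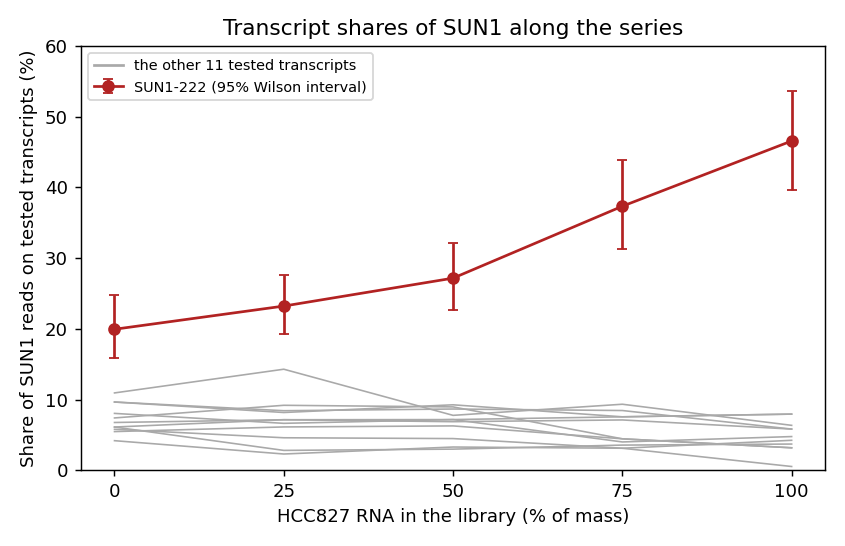
Share of reads (vertical axis, % of reads on the 12 tested transcripts of SUN1) against the share of HCC827 RNA (horizontal axis, % of mass) in the 5 libraries. The red line is SUN1-222 with 95% Wilson intervals, which goes from 19.9 to 46.6%, and grey lines are the other 11 transcripts.

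The transcript SUN1-222 runs on into the next gene. GENCODE labels it as subject to nonsense-mediated decay, and of its 17 exons 8 overlap exons of GET4-201, the main transcript of the downstream gene GET4, a factor for inserting tail-anchored membrane proteins. They hold 1842 of its 2975 bases (61.9%). GET4 itself had 168, 229, 206, 202 and 193 reads and rose. Without SUN1-222, the Simes adjusted p of SUN1 was 1.00 (unadjusted 0.473) and no member passed in the edgeR test (5 had an unadjusted p under 0.05). With its reads counted for GET4, SUN1 had 255, 313, 248, 142 and 104 reads and fell by 0.95 ± 0.17 (edgeR adjusted p = 5.94e-04), more than the 0.40 ± 0.14 with them, and GET4 rose by 0.67 ± 0.14. Which gene those reads came from was not tested. The call on isoform usage was also lost without the 100:0, the 75:25, the 25:75 or the 0:100 library.

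SNX8, ADAP1 and CYCS had the next smallest Simes p but did not pass. SNX8-205, a short transcript of SNX8, took 12.4, 4.02, 5.58, 5.37 and 1.41% of the gene's tested reads (adjusted p = 0.325 in edgeR). The retained-intron transcript ADAP1-211 took 17.4, 14.2, 8.55, 4.96 and 8.08% (adjusted p = 0.851 in edgeR), and CYCS had an adjusted p of 0.421. Over all members, protein-coding transcripts held 86.0, 86.3, 86.3, 87.6 and 87.5% of reads and retained-intron transcripts 7.80, 7.73, 7.95, 7.25 and 7.51%. Transcripts of protein-coding genes with no defined coding sequence held 2.32, 2.11, 1.94, 1.61 and 1.46%, falling at every step.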

How the data were processed

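Poly(A) RNA of the 5 mixtures was sequenced as nanopore cDNA after PCR. The authors deposited estimated counts of reads per transcript, 1 table per library, with no scaling. minimap2 2.24, Salmon 1.9.0 and GRCh38 are named in the submitters' processing notes, with no role given, and the annotation release, the use of strand and the division of reads among similar transcripts are not given in the sources used here. Counts were rounded (2 values were not whole), second copies of 161 identifiers were summed with the first, and 224076 of 227751 human transcripts, holding 98.6% of human reads, were paired with genes through GENCODE v44. Reads carry no molecular identifiers, so intervals cover counting error only.

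Gene counts were fitted with edgeR 4.0.16 (R 4.3.3) with TMM scaling for genes with at least 10 reads in at least 2 libraries, as a quasi-likelihood slope on the HCC827 fraction, with Benjamini-Hochberg adjustment and a threshold of 0.05. Standard errors are |slope|/√F. Reads mix linearly and their logarithm does not, so a slope is smaller than the log2 ratio of a gene that 1 line hardly expresses. Isoform usage was tested with diffSpliceDGE. Slope and isoform tests were tested on simulated data. There the slope test found 132 of 200 changed genes, with 8 false calls among 13492 genes. It found 53 of 100 genes changed 2-fold and 79 of 100 changed 4-fold, so a gene that did not pass may still differ. Alternatives used DESeq2 1.42.0 and limma 3.58.1.

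The members, gene lists and settings were chosen with earlier results of these data known. A naming rule gave 49 genes: the 8 largest ratios in each direction among called genes in order, the HOXA genes, the 2 steepest called genes of each list and direction, the 3 nearest EGFR on each side, the 3 with most reads, the 4 with the smallest Simes p and the 4 flattest. It also took genes at the edge of the read rule. Other genes were named after their values were seen, and some genes that the rule gave are not reported here. Upstream sequences are from RefSeq (GRCh38.p14), and no protein sequences were used here.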

Additional observations from a re-analysis of the deposited data

How the results depend on the processing

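No paired analysis was possible because each ratio had 1 library. Of the 107 members that passed, 104 also passed with DESeq2 size factors, 92 with library totals, 103 with limma-voom (limma), 87 with the DESeq2 Wald test, and 67 to 98 in the fits without 1 library. With all libraries and in each of the 5 fits without 1 library, 58 passed, 18 rising and 40 falling. The fits without 1 library gave 69 to 101 calls in all and 47 to 73 falling ones, fewest without the 0:100 library. Library totals left 16 rising genes and a median slope of -0.95 over the members, or -0.99 farther than 2 Mb from EGFR. Comparing the libraries 100:0 and 75:25 with 25:75 and 0:100 (2 against 2) gave 36 calls, 11 rising and 25 falling. With counts under 10 set to 10 reads, 6 members were at least 4-fold higher and 10 lower in the 0:100 library, and at 2-fold the numbers were 22 and 48. The isoform call on SUN1 gave way to 0 calls with 10 reads required in all 5 libraries (edgeR; 5 unadjusted p under 0.05) and without SUN1-222, an alternative chosen after seeing the data, and calls ran from 0 to 1 in the fits without 1 library. Other alternatives chosen after seeing the data removed the length trend, left out readthrough and copied genes (30 rising and 72 falling) or left out the members near EGFR.

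Among named genes, signs turned for those with slopes near 0. INTS1 had -0.41 with library totals, -0.023 with no filter, -0.051 with 10 reads in all 5 libraries, -0.0033 with limma-voom and -0.023 for 2 against 2. OGDH had -0.41, -0.023, -0.050 and -0.018 with library totals, no filter, 10 reads in all 5 libraries and 2 against 2, and -0.0052 with protein_coding transcripts only. AP5Z1 had 0.0083 with DESeq2 size factors, 0.23 with protein_coding transcripts only and 0.0084 in the DESeq2 Wald test, WIPI2 had 0.012 with protein_coding transcripts only, and PPIA had -0.28 with library totals. Without 1 library, slopes ran from -0.24 to 0.15 for INTS1, -0.026 to 0.016 for AP5Z1, -0.16 to 0.18 for WIPI2 and -0.028 to 0.030 for OGDH. The cause was not tested.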

Other observations

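Of the nearly identical gene copies on the arm, RSPH10B and RSPH10B2 had slopes of opposite sign. RSPH10B, a radial spoke gene of cilia, had 104, 112, 99, 59 and 32 reads and fell (slope -1.10 ± 0.27), while its copy RSPH10B2 had 1, 12, 16, 10 and 20 reads and rose (slope 2.55 ± 0.74). The pair CCZ1 and CCZ1B, which encode the same subunit of an endosomal exchange factor, overlap these copies on the opposite strand. CCZ1 had 274, 339, 307, 183 and 106 reads and fell (slope -0.86 ± 0.21), and CCZ1B had 52, 93, 63, 44 and 45 and did not pass (slope -0.13 ± 0.30). The calls on RSPH10B, RSPH10B2 and CCZ1 were each lost without the 0:100 library, and that on RSPH10B2 also without the 100:0 library. How reads were divided between copies is not given in the sources used here, its part was not tested, and neither was the difference between copies.

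Other genes outside the lists also fell or rose. OSBPL3, an oxysterol-binding protein, fell by 0.95, TMEM106B, a lysosomal membrane protein, by 0.79 and DPY19L1, a mannosyltransferase of the endoplasmic reticulum, by 0.98. MIOS, a component of the GATOR complex that senses amino acids, fell by 1.49. TMEM106B and DPY19L1 passed in all 5 fits without 1 library, and OSBPL3 and MIOS did not pass without the 0:100 library. TTYH3, a chloride channel family gene, and PRR15 rose by 0.57 and 1.68, but both were lost without the 100:0, the 50:50 or the 25:75 library and with library totals.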
